A study of Mus musculus with 2 samples.

Results

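The circadian clock genes described here are the core activators Arntl (Bmal1) and Clock, the repressors Per1, Per2, Per3, Cry1 and Cry2, the nuclear receptor genes Nr1d1 and Nr1d2 (Rev-erb alpha and beta), and the output factor gene Dbp. They were taken by symbol from the deposited expression table, and all 10 were found among its 24369 gene rows. The table holds 2 libraries of total RNA from sorted alveolar type 2 cells, the surfactant-making cells of the lung, of wild-type mice of strain C57BL6, 1 library of age 7 days after birth (P7) and 1 of age 28 days (P28). Values are RPKM, read numbers divided by gene length and by sequencing depth, so levels can be set side by side between genes. The labels give no treatment, no transgene, no number of animals, no sort marker and no hour of collection.

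The clock is a transcriptional feedback loop that runs in most cells, lung epithelium included. The proteins of Arntl and Clock pair up and switch on genes that carry E-boxes, among them the Per, Cry, Nr1d and Dbp genes, and the PER and CRY proteins then shut this pair down. In a second loop the NR1D receptors repress Arntl, Clock, Npas2, Cry1 and Nfil3 through RORE sites, which ROR receptors activate, and DBP and its relatives act on D-boxes, as in the Per genes. Transcripts of this loop rise and fall over the day in sequence: in mouse peripheral tissues Nr1d1 peaks earlier in the day than Per2, and Arntl peaks at roughly the opposite time to Per2. A single collection therefore reads 1 point of a moving pattern.

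Sequences before the start sites show which of these elements lie close to the genes. RefSeq promoter windows of 300 bases (250 before and 50 after a start site, build GRCm38.p6) were at hand for 9 of the 10 genes, in 13 windows, and Per2 was not among them. Both strands were searched for the E-box CACGTG, the variant E-box CACGTT, printed as AACGTG where it lies on the other strand, the D-box TTATGTAA or TTACGTAA, the RORE core TAGGTCA or TGGGTCA, and the CRE TGACGTCA, and 8 matches were found in 6 windows. Among all 32851 windows of the table, 7.15% held the E-box, 4.68% its variant, 1.06% the D-box, 6.45% the RORE core and 1.79% the CRE. A match is a description of letters and not of binding, and a window without a match says nothing about sites farther away. The stretches below read 5′ to 3′ on the gene's strand, with matches in capitals and positions counted back from the start site. The first is the whole 250 bases before Nr1d1, the gene with the largest difference between the libraries, and the others are the stretches around the matches of Per1, Per3, Cry1 and Cry2.
Nr1d1, chr11:98775378-98775627, minus strand, a variant E-box 28 bases before the start: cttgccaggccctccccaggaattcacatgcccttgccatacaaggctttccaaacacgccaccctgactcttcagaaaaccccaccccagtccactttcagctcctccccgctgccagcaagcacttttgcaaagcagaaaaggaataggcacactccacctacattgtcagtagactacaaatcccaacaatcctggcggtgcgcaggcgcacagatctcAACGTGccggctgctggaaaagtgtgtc
Per1, chr11:69098763-69098808, plus strand, an E-box at -166: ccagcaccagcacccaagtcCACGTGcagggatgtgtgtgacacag
Per3, chr4:151044796-151044890, minus strand, D-boxes at -205 and -158: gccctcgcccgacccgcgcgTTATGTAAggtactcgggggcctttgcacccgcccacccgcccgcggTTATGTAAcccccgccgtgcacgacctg
Cry1, chr10:85185089-85185153, minus strand, a variant E-box at -79 and an E-box at -60: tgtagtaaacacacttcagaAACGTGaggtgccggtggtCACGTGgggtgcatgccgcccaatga
Cry2, chr2:92434210-92434255, minus strand, a variant E-box at -166: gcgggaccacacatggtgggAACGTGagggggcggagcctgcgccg

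One further match, the RORE core of Arntl, lay 31 bases after the second of its 2 start sites in the table, within the transcript (chr7:113207531-113207557, plus strand): aggcagaaagTAGGTCAgggacggagg. No match was found in the windows of Clock, Nr1d2 and Dbp. The 2 D-boxes of Per3, read against a share of 1.06% of windows with any, and the RORE of Arntl are the elements named for these genes in the description of the loop above.

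The comparison of P28 with P7 asks how these genes differ between the younger and the older animals. Nr1d1 stood far higher at P28, Per1 and Nr1d2 moderately higher, Per3, Per2 and Cry1 lower, and Arntl and Cry2 differed by less than counting error as deposited. The genes that the Arntl and Clock pair drives thus went in both directions. With 1 library per age there is no replicate and no test, and "higher" or "lower" compares these libraries. The intervals given are exact 95% counting intervals, from read numbers recovered from the spacing of low RPKM values (about 17600000 reads behind the P7 values and 24600000 behind the P28 values). They cover counting error only, and not the spread between animals or preparations. Where PCR copies were counted, which are not separate molecules, the intervals are too narrow even for that.

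**Figure D1:**
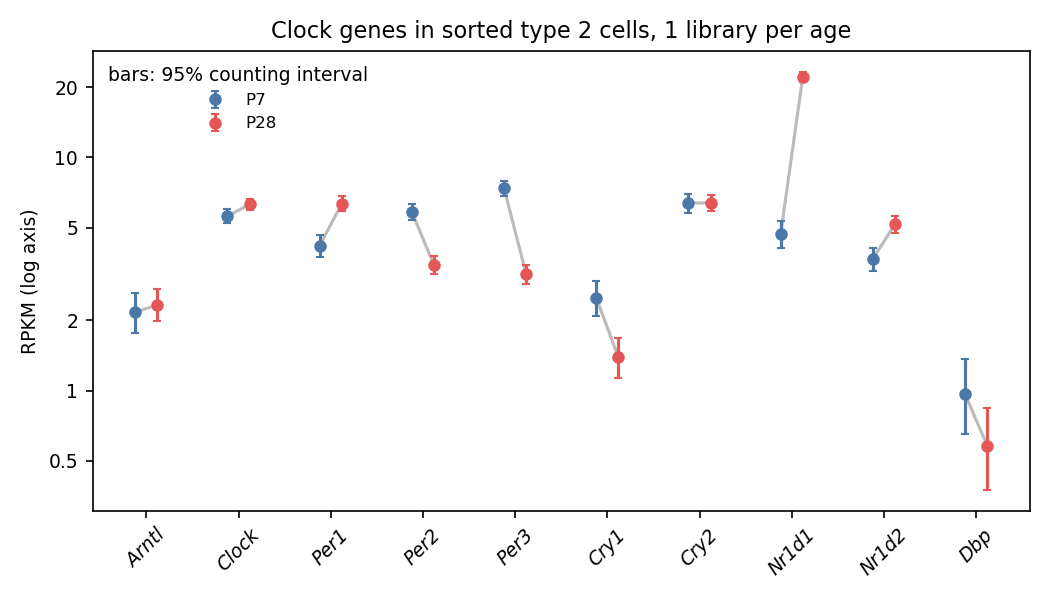
RPKM (log axis) of the 10 clock genes, 1 blue point for the P7 library and 1 red point for the P28 library, with 95% counting intervals as bars and a grey line joining the pair. Nr1d1 goes from 4.68 to 22.2 RPKM, while Per2, Per3 and Cry1 lie lower at P28 and the points of Arntl and Cry2 lie within each other's bars.

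A gene was called at 2-fold on the scale of log2(RPKM + 1), counting genes that reach 1 RPKM in either library. Of the clock genes 9 passed that filter, all with more than 1 RPKM in both libraries, and Dbp did not. Of these 9, 1 was at least 2-fold higher at P28 (Nr1d1), 1 was at least 2-fold lower (Per3) and 7 lay within 2-fold, where 1.18% of all 9653 genes that passed were higher and 1.96% lower. By the counting interval of the plain ratio, 4 of the 9 lay above 1 (Nr1d1, Per1, Nr1d2, Clock), 3 below 1 (Per3, Per2, Cry1), and 2 had intervals that include 1 (Arntl, Cry2). Over the 9547 genes with a transcript length the shares were 18.0% above and 33.3% below. The median log2 ratio of the 9 was 0.07, between -1.01 and 2.03, and that of all genes was -0.08.

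The libraries had unequal RPKM totals (108758 and 143071), and the direction of small differences depends on how this is handled. With both set to the same total, the median of all genes moved from -0.08 to -0.38, and the genes at least 2-fold apart went from 114 higher and 189 lower to 65 higher and 446 lower. On that scale the intervals of 2 clock genes lay above 1 (Nr1d1, Per1), 5 below 1 (Clock, Per2, Per3, Cry1, Cry2) and 2 included 1 (Arntl, Nr1d2). Equal totals multiply the ratios of P28 over P7 by 0.760, and a few very abundant genes weigh heavily in that factor. Without the 10 most abundant genes it was 0.981, and with equal upper quartiles 1.07. On those 2 scales the log2 ratio was 0.06 and 0.14 for Arntl and 0.12 and 0.22 for Clock.

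Among the activators, Arntl had 2.17 RPKM at P7 and 2.34 at P28, a ratio of 1.08 (0.838 to 1.40). Both values rest on few reads (104 and 157), so a difference inside that interval was not detectable at this depth. Clock, the partner of Arntl in the activating pair, had 5.61 and 6.28 RPKM, a ratio of 1.12 (1.02 to 1.23). With equal totals the sign of both changed, to 0.819 (0.637 to 1.06) for Arntl and 0.851 (0.776 to 0.935) for Clock. Relative to each other they kept their levels, with 2.59 Clock transcripts per Arntl transcript at P7 and 2.69 at P28 on the RPKM scale. Npas2, which can take the place of Clock, had 1.59 and 2.20 RPKM, a ratio of 1.38 (1.10 to 1.73).

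Among the Per genes, whose products carry the negative limb of the loop, 1 stood higher and 2 lower at P28. Per1 had 4.18 RPKM at P7 and 6.34 at P28, a ratio of 1.52 (1.33 to 1.72), which was 1.15 (1.01 to 1.31) with equal totals. Per2 had 5.84 and 3.45 RPKM, 1.69-fold lower at P28 (ratio 0.591, 0.524 to 0.667). Per3, the member least needed for rhythm in mice, had 7.37 and 3.16 RPKM, 2.33-fold lower at P28 (ratio 0.429, 0.381 to 0.481). It ranked 182nd from the bottom by log2 ratio among 9653 genes. Its log2 ratio of -1.01 was at the 2-fold line, and was -0.93 with the upper quartiles or the medians of the libraries aligned and -0.60 with a pseudocount of 5. The makeup of the family changed with this: Per1 gave 24.1% of the summed Per RPKM at P7 and 49.0% at P28, and Per3 42.4% and 24.4%. In the P7 library Per1 was the lowest of the 3 and in the P28 library the highest, and a ratio within a library does not depend on its scaling.

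The Cry genes, whose products bind and inhibit the activating pair, also parted. Cry1 had 2.50 and 1.39 RPKM, 1.80-fold lower at P28 (ratio 0.555, 0.424 to 0.722), on 133 and 103 reads. Cry2 had 6.37 and 6.38 RPKM, a ratio of 1.00 (0.885 to 1.13), which became 0.762 (0.673 to 0.861) with equal totals. Within a library there were 2.54 Cry2 transcripts per Cry1 transcript at P7 and 4.60 at P28. A noncoding gene on the other strand, D930015M05Rik, covers 3.75% of the Cry2 exon bases and had 0.477 and 0.444 RPKM.

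Of the nuclear receptor genes, Nr1d1 gave the largest difference of all 10 genes. Nr1d1 (ENSMUSG00000020889.11, chromosome 11, 98767932 to 98775333 in GRCm38, minus strand, 8 exons) had 4.68 RPKM on 224 reads at P7 and 22.2 RPKM on 1483 reads at P28. The ratio was 4.73 (4.11 to 5.48), and 3.60 (3.13 to 4.16) with equal totals. It ranked 16th from the top by log2 ratio among 9653 genes. In level it went from percentile 62.8 of those genes to percentile 94.0. Nr1d2, its paralog with the same DNA targets, had 3.67 and 5.17 RPKM, a ratio of 1.41 (1.23 to 1.62) that became 1.07 (0.931 to 1.24) with equal totals. Nr1d1 stood at 1.27 times the RPKM of Nr1d2 at P7 and at 4.29 times at P28.

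The last exon of Nr1d1 overlaps the end of Thra, a thyroid hormone receptor gene read from the opposite strand, over 263 of 2721 exon bases (9.67%), and no source says whether strand was used in counting. Thra itself had 3.16 and 3.08 RPKM, with no difference beyond counting error, so its level did not move with that of Nr1d1. By distance on log2(RPKM + 1) over the 2 libraries, the genes of 10 RPKM or more most like Nr1d1 were Itih4 (4.63 and 22.1 RPKM), Aox3 (4.31 and 22.7), Mgp (4.17 and 17.9), Lrg1 (6.21 and 19.5) and Cyp2b10 (6.65 and 21.8). With 2 libraries this likeness means a like pair of values and no more.

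Dbp, the output factor whose transcript swings widely over the day in other tissues, was the lowest of the 10 genes at both ages. It had 0.966 RPKM on 31 reads at P7 and 0.582 RPKM on 26 reads at P28, a ratio of 0.602 (0.342 to 1.05). It was below the filter, so it is in no count, and a difference between the ages was not detectable at this depth on the deposited scale. With equal totals its ratio was 0.458 (0.260 to 0.794). Sphk2, a sphingosine kinase gene on the opposite strand, covers 539 of 1837 exon bases of Dbp (29.3%) and had 2.37 and 2.71 RPKM, above Dbp in both libraries. Reads of the 2 genes cannot be told apart there if the counting ignored strand.

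**Figure D2:**
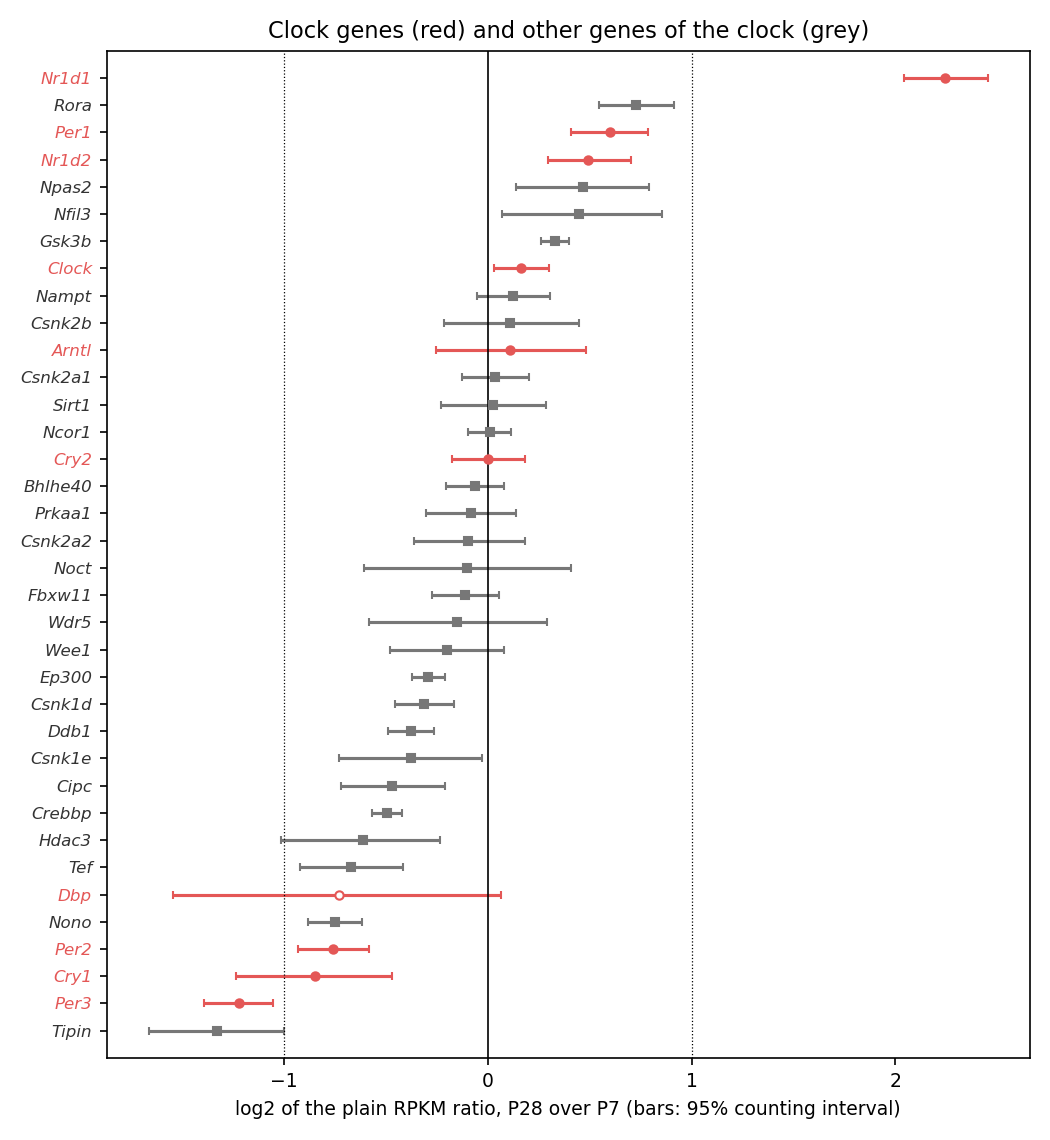
log2 of the plain RPKM ratio of P28 over P7, with 95% counting intervals as bars, for the 10 clock genes (red) and the 26 other clock genes that passed the filter (grey), sorted by ratio. Dotted lines mark 2-fold and the open point is Dbp, which was below the filter; Nr1d1 lies alone beyond 2-fold on the right, and Tipin and Per3 lie beyond it on the left.

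Set against Arntl in the same library, which removes any scaling between libraries, the order of the changes was as follows. Nr1d1 gained 2.14 on the log2 scale between P7 and P28, Per1 gained 0.49 and Nr1d2 0.39, and Clock moved by 0.06. Cry2 fell by 0.11, Dbp by 0.84, Per2 by 0.87, Cry1 by 0.96 and Per3 by 1.33. These values carry the counting error of Arntl as well as their own. Nr1d1 stood at 2.16 times the RPKM of Arntl at P7 and 9.49 times at P28, whereas Per3 went from 3.40 times to 1.35 times.

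The order of levels differed between the libraries. At P7 it ran from Per3 (7.37 RPKM) through Cry2, Per2, Clock, Nr1d1, Per1, Nr1d2, Cry1 and Arntl to Dbp. Counting intervals of neighbours in that order overlapped except between Nr1d2 and Cry1 and between Arntl and Dbp, so the upper 7 formed a graded series. At P28 Nr1d1 led, with an interval (21.04 to 23.31 RPKM) apart from that of Cry2, the next gene. Cry2, Per1 and Clock followed at 6.38, 6.34 and 6.28 RPKM, with overlapping intervals. After them came Nr1d2, then Per2 and Per3, whose intervals overlapped, and then Arntl, Cry1 and Dbp, each apart from the next.

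**Figure D3:**
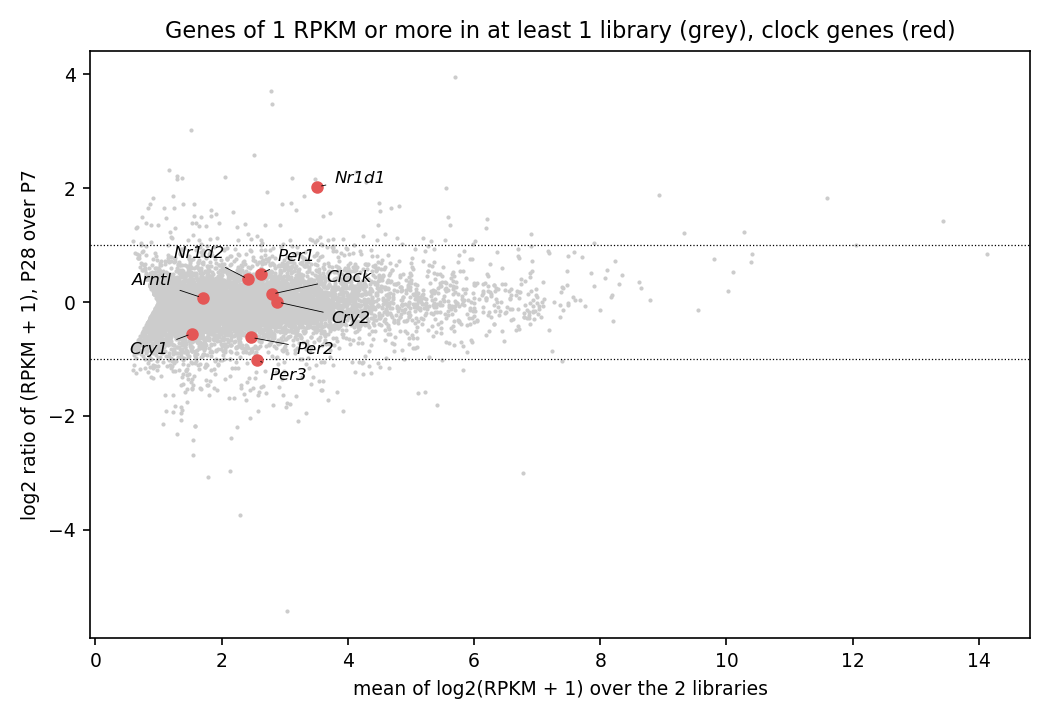
Each grey point is 1 of the 9653 genes that reached 1 RPKM in either library, placed by its mean log2(RPKM + 1) and by its log2 ratio of P28 over P7, with the 9 clock genes that passed in red and dotted lines at 2-fold. Nr1d1 lies at 2.03, above the band that holds most genes, Per3 lies on the lower line, and the other 7 lie inside the band.

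Other genes of the clock were read from a list of 35, of which all were in the table and 26 passed the filter. None of the 26 was at least 2-fold higher at P28 and 1 was lower, Tipin, with a median log2 ratio of -0.08, the same as over all genes. By counting interval 4 of the 26 lay above 1, 10 below and 12 included 1, where over all genes with a length 18.0% lay above and 33.3% below. Rora, a ROR receptor that competes with NR1D proteins for RORE sites, had 2.94 and 4.87 RPKM, a ratio of 1.66 (1.46 to 1.88), and its relative Rorb had 1 read at P7 and none at P28.

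Tipin, the partner of Timeless at replication forks, had 6.66 and 2.65 RPKM, 2.51-fold lower at P28, and Timeless itself had 0.579 and 0.0901 RPKM, below the filter. These genes also act in DNA replication. All 8 proliferation markers checked had a negative log2 ratio, as had 5864 of all 9653 genes that passed. Of the 8, 6 were called at least 2-fold lower, against 1.96% of all genes that passed. Their median log2 ratio was -1.21, against -0.08 over all genes. All 8 counting intervals lay below 1, against 33.3% of all genes with a length. The markers had a summed level of 82.7 RPKM at P7 and 37.0 at P28. The part of this in the difference of Tipin and Timeless was not tested. Nono, an RNA-binding partner of PER proteins, had 22.9 and 13.6 RPKM, a log2 ratio of -0.71. Among regulators of clock protein stability (casein kinases, Gsk3b and F-box proteins), 8 of 11 passed and none was 2-fold apart. Gsk3b, a kinase, had a ratio of 1.26 (1.20 to 1.32), Csnk1d of 0.806 (0.730 to 0.891) and Csnk1e of 0.769 (0.604 to 0.980). The ratios of other clock genes, Npas2 and Nfil3 included, are given on the deposited scale only. Equal totals multiply each by 0.760, which takes that of Gsk3b below 1.

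Tef, a relative of Dbp that binds the same D-boxes, had 3.73 and 2.34 RPKM, a ratio of 0.628 (0.527 to 0.749), and Hlf, the third of that family, had 0.180 and 0.179 RPKM. Nfil3, which represses at D-boxes, had 2.39 and 3.27 RPKM, a ratio of 1.36 (1.05 to 1.81). The repressor gene Bhlhe40 was the most abundant output factor, at 13.04 and 12.49 RPKM. Ciart, a repressor that is strongly rhythmic in other tissues, had 5 and 18 reads, a ratio of 2.58 (0.922 to 8.88).

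Grouped by the element that drives them, neither set went one way. Over all 9653 genes that passed the filter, 3789 log2 ratios were above 0 and 5864 below. Of 12 genes driven mainly through E-boxes and D-boxes (the Per and Nr1d genes, Dbp, Tef, Hlf, Ciart, Bhlhe40, Bhlhe41 and Usp2), 7 passed the filter, with 3 log2 ratios above 0 and 4 below, a median of -0.06 and a range from -1.01 to 2.03. All 5 genes under RORE control (Arntl, Clock, Npas2, Nfil3 and Cry1) passed, with 4 above 0 and 1 below, a median of 0.14 and a range from -0.55 to 0.33, though Arntl and Clock turned below 0 with equal totals. The gene below 0 as deposited was Cry1, whose promoter window held E-boxes and no RORE core, so its place in this set is not exclusive. Cry2 was in neither set. The genes of the second set that NR1D proteins repress include Cry1, which was lower in the library with the higher Nr1d1, and Npas2 and Nfil3, which were not lower. With 2 libraries no relation between these genes can be tested.

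**Figure D4:**
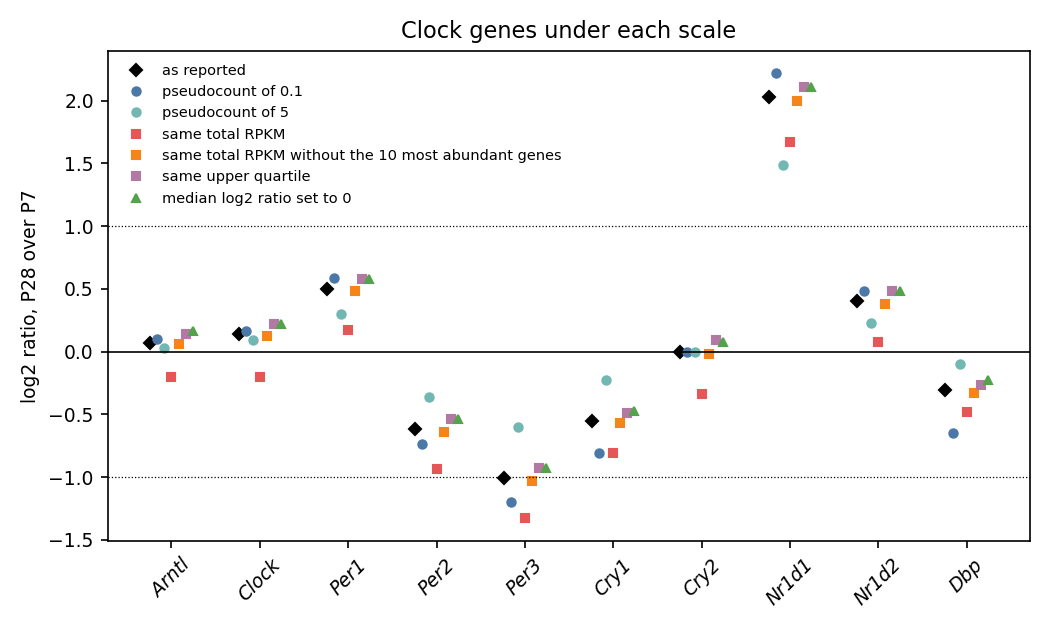
log2 ratio of P28 over P7 for each clock gene as reported (black diamonds) and under 6 other pseudocounts or scalings (coloured points), with dotted lines at 2-fold. Nr1d1 stays above 1 in every one, Per3 lies on both sides of -1, and Arntl, Clock and Cry2 have points on both sides of 0.

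Other features differed between the libraries along with age. Xist had 52.7 RPKM at P7 and 0.245 at P28, and the Y-linked genes Ddx3y, Kdm5d and Uty were listed at 0 at P7 and at 2.16 to 4.01 RPKM at P28. Age, sex and any difference in the hour of collection cannot be told apart in any value above. The summed level of 10 type 2 cell markers was 16750 and 29340 RPKM, so the labelled cell type was present in both. Most of this sum came from Sftpc (13340 and 24080 RPKM). Of the 10 type 2 markers 1 was called higher and none lower, and by counting interval 7 lay above 1 and 2 below. The summed level of 8 endothelial markers was 45.9 and 23.4 RPKM (5 of 7 that passed called 2-fold lower), of 8 fibroblast markers 37.0 and 14.4 (3 of 7 lower), of 7 type 1 cell markers 304 and 185 (1 of 7 lower), of 5 erythroid genes 37.2 and 0.910 (4 of 4 lower) and of 10 airway markers 7315 and 19070 (4 of 10 higher). Over all genes the same calls took 1.18% higher and 1.96% lower. The erythroid calls were Hbb-b1 and Hbb-bs (ratio 0.0205 for each) and Hba-a1 and Hba-a2 (0.0233 for each), so they are not 4 separate readings. By counting interval 6 of 7 endothelial, 6 of 7 fibroblast and 6 of 7 type 1 markers that passed lay below 1, and 9 of 10 airway markers lay above. The remaining airway marker, Tppp3, had a ratio of 0.861 (0.792 to 0.935). Most of the airway sum came from Scgb1a1 (6764 and 18100 RPKM). The airway markers called higher were Scgb1a1, Scgb3a1, Cyp2f2 and Muc5b. The fibroblast markers did not all fall on one side: Dcn had a ratio of 2.75 (1.55 to 5.26), and Pdgfra, below the filter, 4.81 (2.72 to 9.56). The summed level of 8 leukocyte markers was 788 and 720 RPKM, nearly all of it from Lyz1 (785 and 716 RPKM). Marco and C1qa were at 0 in both libraries, Ptprc had 8 reads and 1, and Cd79b had 2.84 and 3.02 RPKM. None of the 3 that passed was called on the log2(RPKM + 1) scale, with Cd68 at 0.455 and 1.08 RPKM (a ratio of 2.36, 1.14 to 5.37). The clock runs in most nucleated cell types, and the part of the cell mixture in their values was not tested. A lower RPKM can mean fewer expressing cells or less RNA per cell, and these cannot be told apart in bulk libraries.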

How the data were processed

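RPKM values, 1 column per library, were deposited by the authors, per the file headers. TopHat, TopHat2 2.0.9 and GRCm38 (mm10) are named in the submitters' processing notes, without their roles. The counting program, the annotation and any filters were not given in the sources used here. Each column carried the title of 1 sample, and 0 columns were unused.

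Transcript lengths and positions came from GENCODE M21 (GRCm38), using transcripts linked to RefSeq, with the mean where a gene had several lengths (Arntl, Clock and Per1 among the clock genes). Low RPKM values times length fell within 0.05 of whole steps for 63.8% of 2303 genes (P7) and 61.1% of 2145 (P28), against 10% by chance. The step gave read numbers, and exact Clopper-Pearson (ratio) or Poisson (level) 95% intervals followed with scipy 1.17.1. A pseudocount of 1 RPKM understates differences of low genes. Calls and intervals were run on simulated data that held counting error only, with changes set in more abundant genes. This checks the code and cannot show how well the calls hold between animals.

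The members and lists were chosen with earlier results of these data known. By rule the text names all 10 members, may name other clock genes that passed 1 RPKM, always those farthest apart, and names the genes called at 2-fold in the phase, temperature, glucocorticoid and immediate-early lists; cell type markers are given as counts and sums. Thra, Sphk2, D930015M05Rik, Xist, the Y-linked genes, Ptprc, Marco, C1qa, Lyz1, Cd79b, Hbb-b1, Hbb-bs, Hba-a1, Hba-a2, Timeless, Rorb, Hlf, Ciart, Cirbp, Rbm3, Sgk1, Tsc22d3, Tspan4, Fos, Junb, Dcn, Pdgfra, Cd68, Scgb1a1, Scgb3a1, Cyp2f2, Muc5b, Tppp3 and Sftpc were named after their values were seen. A few list members are not reported here and are in no list count. Alternatives changed pseudocount, filter and scaling.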

Additional observations from a re-analysis of the deposited data

How the results depend on the processing

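The count of 1 clock gene at least 2-fold higher at P28 was 1 under all 8 alternatives. The count of 1 lower (Per3) became 0 with a pseudocount of 5, the median log2 ratio set to 0, or the same upper quartile. Other clock genes at least 2-fold lower, 1 as reported, were 0 with a pseudocount of 5, the median log2 ratio set to 0, or the same upper quartile, and 2 with the same total RPKM. Over all genes (114 higher, 189 lower), a filter of 5 RPKM gave 73 and 93, a pseudocount of 0.1 gave 226 and 530, a pseudocount of 5 gave 39 and 34, and the same total RPKM gave 65 and 446; the cause was not tested, apart from the fewer genes counted by the filter. Of 77 recomputed log2 ratios of the clock genes, 65 stayed within the counting interval, 12 moved beyond it and 4 had the other sign (Arntl, Clock and Cry2 with the same total, and Cry2 also with the same total without the 10 most abundant genes). The 65 include every value under a change of filter alone, which cannot move a ratio. All 9 changes against Arntl kept their sign with 1 RPKM added to both genes. No paired analysis was possible because each age has 1 library. Depth limits Dbp, Arntl and Cry1 most.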

Other observations

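Of the lists of genes that can also follow the time of day in other tissues, not all held a gene called at 2-fold. Of 3 listed genes rhythmic in many organs, 2 passed the filter and none was called higher or lower at P28. By the plain ratio they lay beyond counting error on opposite sides. Tsc22d3 had a ratio of 1.54 (1.24 to 1.93) and Tspan4 of 0.441 (0.228 to 0.773). Over all genes with a length 18.0% lay above 1 and 33.3% below. The median log2 ratio of -0.02 lies between these 2 opposite values. Of 8 genes tied to body temperature, all of which passed the filter, 4 were called higher at P28 and none lower, with a median log2 ratio of 1.06 (1.18% of all genes were higher). These were the heat shock genes Hsph1 (3.09 and 17.5 RPKM), Hspa1a (0.753 and 4.004), Hspa1b (0.483 and 2.47) and Dnajb1 (12.1 and 38.6). Hspa1a and Hspa1b are near copies that can share reads. The cold-inducible genes Cirbp (4.84 and 2.66 RPKM) and Rbm3 (32.1 and 19.2) had ratios of 0.549 (0.410 to 0.734) and 0.597 (0.545 to 0.655). Heat shock genes also answer to cell handling, and the part of either in these values was not tested.

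Of 10 genes that glucocorticoids induce, a hormone class that also induces Per1, 9 passed and 4 were at least 2-fold higher at P28, with a median of 0.98. They were Zbtb16 (0.222 and 4.52 RPKM), Glul (8.43 and 39.8), Sult1a1 (3.73 and 11.1) and Klf9 (4.52 and 10.2). Over all genes that passed, 1.18% were at least 2-fold higher, and the median log2 ratio was -0.08. Sgk1 had 3.37 and 1.58 RPKM, and Tsc22d3 3.86 and 5.94. Of 10 immediate-early genes, a class that Per1 can join, Zfp36 was called higher (43.5 and 122 RPKM) and the other 9 were not called on the log2(RPKM + 1) scale, among them Junb at 2.62 and 5.44 RPKM, a plain ratio of 2.07 (1.60 to 2.68). The median of the 10 was 0.26, against -0.08 over all genes, of which 1.18% were called higher. Fos had 35.8 and 35.0 RPKM. The lists were drawn up with results of these data known, so their counts are descriptions.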
